A study of Homo sapiens with 12 samples.

Results

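Interferon-stimulated genes are the genes that cells switch on when an interferon reaches its receptor, and 41 of them, taken from a list of symbols, were followed in HEK293T cells. All 41 were among the 33093 genes kept from the count table, and 25 of them were among the 14383 genes with enough reads to be tested. HEK293T is a human embryonic kidney line that carries a viral large T antigen. Poly(A) RNA was sequenced from 4 groups of 3 samples each, namely WT HEK293T cells left untreated, WT cells given 10 ng/ml TNFα for 3 h, NFKB1S80A cells left untreated and NFKB1S80A cells given the same dose for the same time. NFKB1S80A cells (called S80A cells here) are HEK293T cells in which CRISPR/Cas9 was used to put an S80A substitution into NFKB1, the gene of the NF-κB subunit p50. Edited cells were isolated by serial dilution as clones grown from single cells, so the edit and the clone cannot be told apart in a comparison of the genotypes. The comparisons ask whether 3 h of TNFα, a cytokine that activates NF-κB, or the S80A genotype moves the interferon programme of these cells.

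Type I interferons bind a receptor made of IFNAR1 and IFNAR2, whose kinases JAK1 and TYK2 activate STAT2. With IRF9 this factor binds the interferon-stimulated response element (ISRE) in target promoters, while interferon gamma acts on gamma-activated sites (GAS). The induced proteins sense, bind or degrade viral RNA, attach the modifier ISG15 to other proteins, block viruses at membranes or help present antigens, and some of their genes also answer to NF-κB or IRF1.

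Total counts on genes were 17724560, 20820493 and 18199915 in the untreated WT samples and 17916964, 19120630 and 19316503 in the treated WT samples. They were 19364317, 15847479 and 20889577 in the untreated S80A samples and 20186645, 15624878 and 17436444 in the treated S80A samples. A floor of 3 counts then equals 0.144 to 0.192 CPM, which is the count scaled to a library of fixed size, and such floors cover counting error only. All values below are normalised counts, scaled for library size, unless CPM or raw counts are named, and the samples of a group are given in the order of their replicate numbers 1 to 3. The samples were called independently generated triplicates by the study, and p-values measure the spread between them. Each sample is bulk RNA of a culture, so fewer cells with a transcript and less of it per cell cannot be told apart.

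Among markers of the HEK293 lineage, EYA1, NEFL and INA had at least 100 raw counts in each sample, and PAX8 had 0 in all of them. PTPRC and CD3E, which mark leukocytes, had 0 counts in all samples. The 4 endothelial markers summed to 2 to 10 raw counts per sample, the 2 hepatocyte markers to 0 to 8 and the 4 markers of kidney podocytes and tubules to 0 to 3. NFKB1, the edited gene, had 1091, 999 and 948 normalised counts in untreated WT samples, 2539.8, 2298 and 2508 in treated WT samples, 1039, 863 and 993 in untreated S80A samples and 3198, 2803 and 2545 in treated S80A samples. It was expressed in every sample and higher in all treated than in all untreated samples, but counts per gene cannot show a point edit, so the genotype labels could not be checked at the edited base. NFKBIA, which encodes the NF-κB inhibitor IκBα and is one of its best known targets, had 453, 426 and 434 normalised counts in untreated WT samples, 5408, 5165 and 4531 in treated WT samples, 540.3, 551 and 475 in untreated S80A samples and 7156, 6199.7 and 6471 in treated S80A samples. All 6 treated samples stood far above all 6 untreated samples. Of 10 NF-κB targets listed to check the treatment labels, 9 were tested, and 7 rose with TNFα in WT cells and 8 in S80A cells, where 0.688% and 1.26% of all tested genes passed in either direction.

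Untreated S80A replicate 2 stood apart from the other samples. On the second principal component, which held 19% of the variance, it lay at −39.0, and the other samples lay between −11.7 and 23.1. Its counts differed from those of replicates 1 and 3 of its group with a chi-square per gene of 37.0 and 21.7, against 8.59 between these 2. Differences of members called in a comparison that uses it are given with and without it.

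Part of the interferon programme was close to silent in these cells. Of the 41 members, 16 were too low to be tested, and none of these passed 12 raw counts in any sample. OAS1, OAS2, IFI16 and XAF1 had 0 counts in all 12 samples, and 10 members in all, these 4 included, never passed 3 counts. The highest count of the 16 belonged to BST2, which encodes tetherin. The untested members also included MX1, RSAD2, IFIT2, OASL, IFI44, IFI44L, PSMB8, PSMB9, PARP14, GBP1 and GBP2. Together the 16 held 8 to 29 raw counts per sample, so a response of these genes was not detectable at this depth unless it lifted them clear of the floor.

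**Figure D1:**
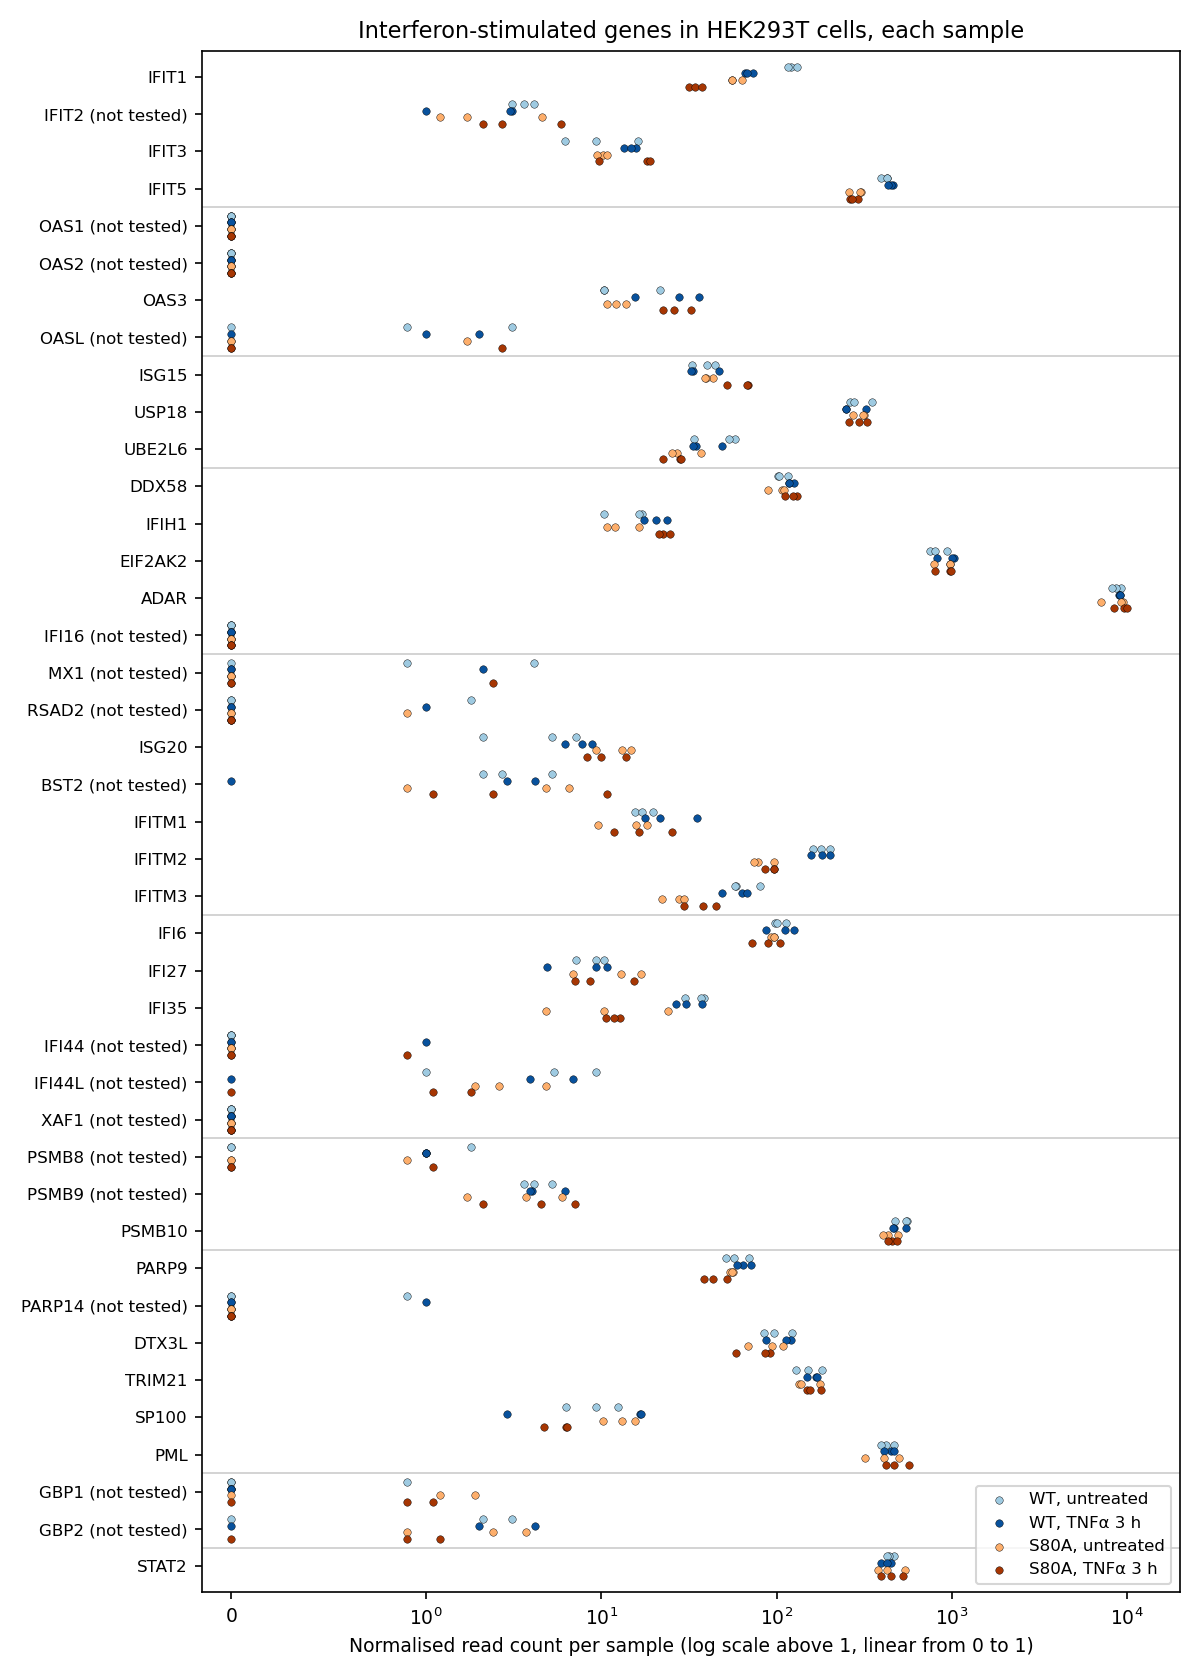
Normalised count of each of the 41 members (horizontal axis, log scale above 1 and linear from 0 to 1) in each of the 12 samples, with 1 point per sample coloured by group and members ordered by role. The 16 members not tested sit at the left, with at most 12 raw counts in a sample, and ADAR lies at the right with 7099 to 10010.4 normalised counts.

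The members with many reads included genes that most cells use without interferon. Per length, in CPM per kilobase of the canonical transcript averaged over all samples, ADAR stood first at 73.0, followed by PSMB10 at 26.5, USP18 at 8.44, IFITM2 at 7.20 and IFI6 at 6.59. On that scale STAT2 reached 5.42, EIF2AK2 4.90 and IFIT5 4.77, against 0.890 for IFIT1 and 0.163 for OAS3. ADAR, an enzyme that turns adenosine into inosine in double-stranded RNA, had 9208, 8678 and 8187 normalised counts in WT cells without treatment, 8971, 9063 and 9119 in WT cells with TNFα, 9549, 7099 and 9293 in S80A cells without treatment and 9662, 10010.4 and 8469.7 in S80A cells with TNFα. Its groups overlapped, and untreated S80A replicate 2 was the lowest sample. EIF2AK2, which encodes the RNA-activated kinase PKR, had 943, 752 and 798 normalised counts in untreated WT samples, 1035, 1008 and 819 in treated WT samples, 974.9, 787 and 976 in untreated S80A samples and 980.1, 989 and 805 in treated S80A samples. Its 4 groups overlapped as well. PSMB10, a catalytic subunit of the immunoproteasome, had 474, 556 and 549 normalised counts in WT cells without treatment, 468, 464 and 546 in WT cells with TNFα, 430.0, 496 and 404 in S80A cells without treatment and 458, 431 and 487 in S80A cells with TNFα. Treated and untreated samples overlapped in both genotypes. STAT2, the transcription factor of the type I response, had 467, 438 and 426 normalised counts in untreated WT samples, 449, 393 and 425 in treated WT samples, 538, 378 and 426 in untreated S80A samples and 528, 447 and 397 in treated S80A samples. PML, which builds nuclear bodies, had 422, 468 and 396 normalised counts in WT cells without treatment, 452, 408 and 466 in WT cells with TNFα, 502, 321 and 409 in S80A cells without treatment and 570.5, 467 and 423 in S80A cells with TNFα. In both genes the untreated S80A samples spread more widely than those of either WT group, and replicate 2 was the lowest sample of all. None of these 5 genes passed the test in any comparison of treatment or genotype.

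Some members share sequence or position with other genes, and their counts are uncertain for that reason. IFITM1, IFITM2 and IFITM3 are related genes, as are USP18 and USP41 or IFIT1 and IFIT1B, although USP41 had 0 to 5 and IFIT1B 0 raw counts. Exons of IFIT3 and IFIT2 overlap those of LIPA on the opposite strand, and LIPA had 1385 to 2511 raw counts per sample. EIF2AK2 overlaps GPATCH11 in the same way, as do PARP9 and DTX3L, PSMB8 and PSMB9, MX1 and TMPRSS2, and RSAD2 and CMPK2. The libraries were made with a stranded kit, but the strand setting of the counting is not given in the sources used here, so reads of such partners may not have been told apart. In the GENCODE annotation, from which all these overlaps were taken, exons of IFITM1, IFITM2, DDX58 and PSMB10 also overlap coding genes on the same strand. Those coding genes carry no symbol there, and GBP2 overlaps GBP7 on the same strand. Strand does not separate reads of these, and whether the annotation used for counting holds the genes without a symbol was not checked.

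Promoter sequences from RefSeq (build GRCh38.p14, 250 bases before to 50 after the transcript start) were found for 34 of the 41 members. They were searched on both strands for an ISRE core (GAAANNGAAA), a GAS core (TTCNNNGAA) and the κB consensus that NF-κB binds, counting overlapping matches. An ISRE core was present in 24 of the 34 members (70.6%), against 4.38% of all 27305 genes with a promoter sequence, counting a gene once where any of its promoters matched. A GAS core was present in 8 (23.5%, against 9.38%) and a κB match in 6 (17.6%, against 7.09%), namely BST2, DDX58, IFIH1, IFITM3, OAS3 and XAF1. In OAS3 the κB match reads on both strands, as 2 overlapping matches. No entry was found for IFIT2, OAS2, OASL, IFITM2, USP18, PML and GBP2. Of the members that passed in a comparison, IFI35 and UBE2L6 had promoter sequences without an ISRE core. Stretches around ISRE cores are shown for members that passed in a comparison and had such a core. Those around κB matches are shown for OAS3 and DDX58 as examples, with each match in capitals.
IFIT1: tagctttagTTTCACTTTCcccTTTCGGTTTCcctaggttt
IFIT5: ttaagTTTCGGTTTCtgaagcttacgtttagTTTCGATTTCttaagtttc
IFITM3: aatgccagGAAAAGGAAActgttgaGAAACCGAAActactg
ISG15: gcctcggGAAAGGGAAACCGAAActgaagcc
ISG20: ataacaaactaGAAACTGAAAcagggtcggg
OAS3: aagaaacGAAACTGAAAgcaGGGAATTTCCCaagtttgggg
DDX58: catttcctcGGAAAATCCCtgctttc
The capitals mark ISRE cores in the first 5, both kinds of match in OAS3 and a κB match in DDX58. ISG15 carries 2 overlapping ISRE cores, and in IFIT5 a further ISRE match that spans the transcript start is not in capitals. Other matches of some of these promoters lie outside the stretches. The stretches lie before the transcript starts at chr10:89392498-89392538 (+ strand, IFIT1), chr10:89414518-89414567 (+, IFIT5), chr11:320880-320920 (− strand, IFITM3), chr1:1013377-1013407 (+, ISG15), chr15:88638936-88638966 (+, ISG20), chr12:112938324-112938364 (+, OAS3) and chr9:32526256-32526281 (−, DDX58). A match is a description of the letters and not a measured binding site.

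TNFα for 3 h lowered 1 tested member of the programme, IFIT1, and raised none past the threshold. IFIT1 encodes a protein that binds viral RNA lacking the methyl mark of host caps. It had 121, 131 and 116 normalised counts in untreated WT samples, 73.7, 66.2 and 67.5 in treated WT samples, 55.6, 55.3 and 63.4 in untreated S80A samples and 31.6, 34.2 and 37.6 in treated S80A samples. Each treated sample lay below each untreated sample of its genotype, and the 4 groups did not overlap, with untreated WT cells highest and treated S80A cells lowest. IFIT1 changed by −0.83 on the log2 scale in WT cells (SE 0.13, n = 3 per group, adjusted p = 0.00538) by the quasi-likelihood test of edgeR, with the Benjamini-Hochberg adjustment over all 14383 genes, which is behind each adjusted p given here unless DESeq2 is named. In S80A cells it changed by −0.76 (SE 0.16, edgeR adjusted p = 0.0256), and averaged over both genotypes, 6 treated against 6 untreated samples, by −0.79 (SE 0.10, edgeR adjusted p = 0.000319). In WT cells the call was lost without untreated replicate 2 (−0.77, edgeR adjusted p = 0.0552, with edgeR or DESeq2 adjusted p from 0.00149 to 0.0552 over all alternatives). In the lists of lost calls that follow, brackets hold the log2 change and the edgeR adjusted p, or the adjusted p alone. In S80A cells it was lost without untreated replicate 3 (−0.68, 0.143) or without treated replicate 1 (−0.70, 0.153), 2 (−0.75, 0.102) or 3 (−0.83, 0.0569), with DESeq2 (0.0570), with no filter on low counts (0.0505) and in a fit of these 6 samples alone (0.236), with edgeR or DESeq2 adjusted p from 0.0244 to 0.236 over all alternatives. When untreated S80A replicate 2 was left out, the change was −0.79 in S80A cells (edgeR adjusted p = 0.0473) and −0.81 averaged (0.000456).

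In WT cells 1 of the 25 tested members passed the threshold, an adjusted p under 0.05, where 0.688% of all tested genes passed and 0.111% were lower. In S80A cells it was again 1 of 25, against 1.26% of all tested genes and 0.292% lower, and averaged over both genotypes 1 of 25, against 2.17% and 0.813%. A count of 1 gene says nothing of the list as a whole. No member was higher past the threshold by edgeR in these 3 comparisons, in which 2, 5 and 4 members had an unadjusted p under 0.05. DESeq2 called 1, 0 and 2 members. The median log2 change of the 25 tested members was 0.06 in WT cells, 0.03 in S80A cells and 0.08 averaged, against 0.00 for all tested genes each time. Of the 24 members not called in the averaged comparison, 20 had a 95% interval within 1 log2 unit either side of 0 and 13 within 0.5, and the intervals reached from −1.13 for SP100 to 1.54 for OAS3.

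**Figure D2:**
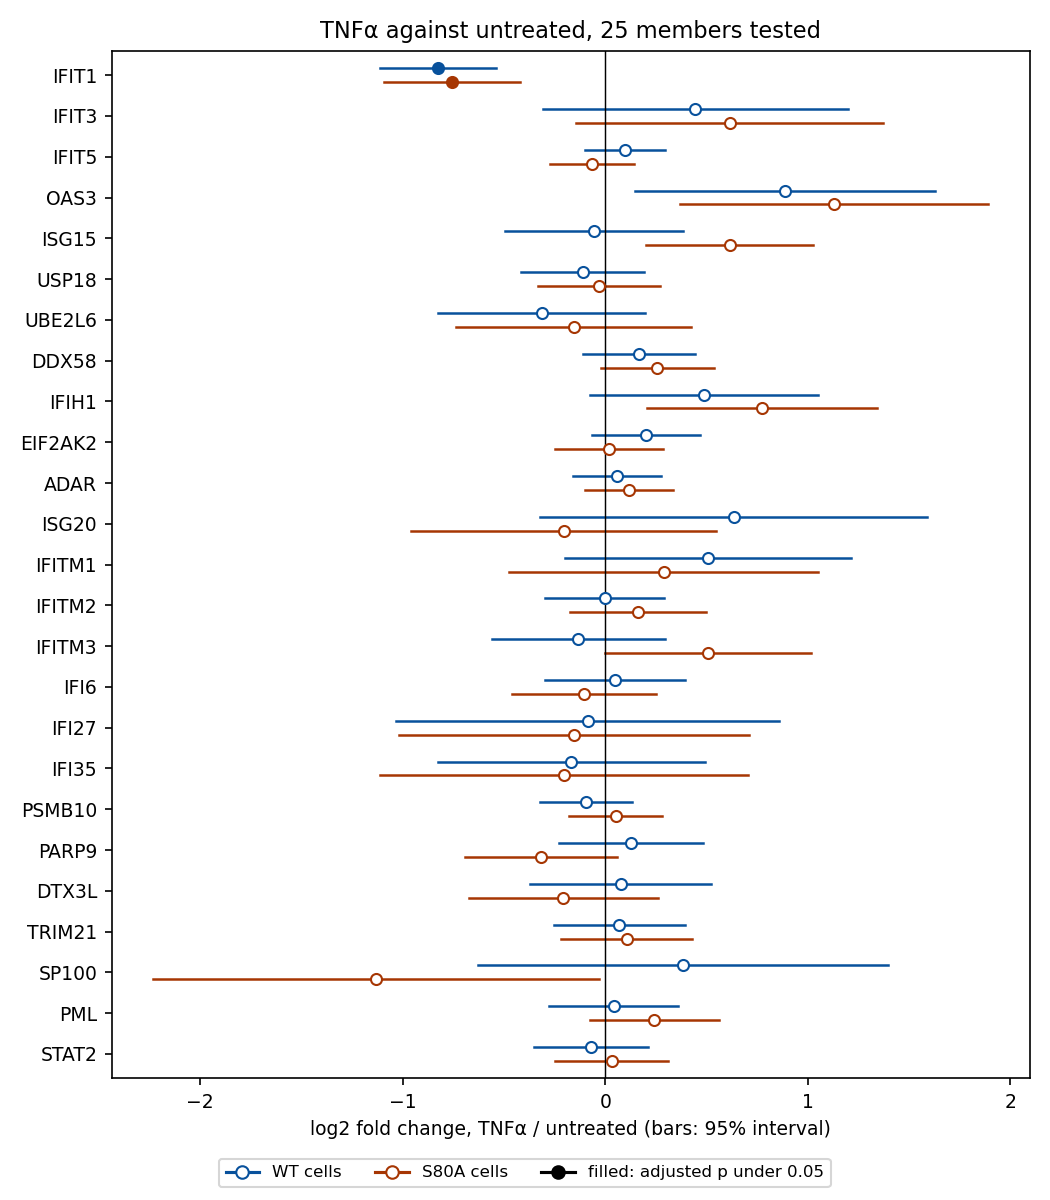
Log2 fold change of TNFα-treated over untreated cells (horizontal axis) for each of the 25 tested members, with WT and S80A cells in separate colours and bars for 95% intervals. Filled points have an adjusted p under 0.05, which only IFIT1 reached, at −0.83 and −0.76.

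The other tested members of the IFIT family did not pass the test with TNFα. IFIT3, a partner of IFIT1 in RNA binding, had 6.2, 16.1 and 9.3 normalised counts in WT cells without treatment, 13.5, 15.8 and 14.7 in WT cells with TNFα, 10.2, 10.8 and 9.5 in S80A cells without treatment and 18.1, 18.9 and 9.7 in S80A cells with TNFα. Treated and untreated samples overlapped in both genotypes. The averaged difference was 0.53 (95% interval 0.00 to 1.06, edgeR adjusted p = 0.532). IFIT5, which binds RNA with a free triphosphate, differed by 0.02 (−0.13 to 0.16), and its values follow with the genotypes.

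OAS3 and the sensor genes IFIH1 and DDX58 had higher values in most TNFα-treated samples, without passing the threshold. OAS3, an oligoadenylate synthetase that activates RNase L, had 10.4, 21.5 and 10.3 normalised counts in untreated WT samples, 15.6, 27.7 and 36.2 in treated WT samples, 13.9, 10.8 and 12.2 in untreated S80A samples and 32.5, 26 and 22.5 in treated S80A samples. In S80A cells each treated sample lay above each untreated one, and in WT cells untreated replicate 2 lay above treated replicate 1. The difference was 0.89 in WT cells (95% interval 0.15 to 1.63), 1.13 in S80A cells (0.37 to 1.89) and 1.01 averaged (0.48 to 1.54, edgeR adjusted p = 0.0506). The averaged difference passed without untreated WT replicate 2 (1.24, adjusted p = 0.0193) or treated WT replicate 1 (1.14, 0.0186), with DESeq2 (0.0326), with DESeq2 size factors (0.0496) and with no filter (0.0127), with edgeR or DESeq2 adjusted p from 0.0127 to 0.147 over all alternatives. With untreated S80A replicate 2 left out, it was 0.97 (edgeR adjusted p = 0.0726).

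IFIH1, which encodes MDA5, a sensor of long double-stranded RNA, had 10.4, 17 and 16.5 normalised counts in WT cells without treatment, 17.6, 23.7 and 20.6 in WT cells with TNFα, 12, 10.8 and 16.5 in S80A cells without treatment and 22.6, 21.2 and 24.7 in S80A cells with TNFα. All 6 treated samples lay above all 6 untreated samples, at counts of about the same size as those of OAS3. The averaged difference was 0.63 (95% interval 0.23 to 1.03, edgeR adjusted p = 0.133). DDX58, which encodes the sensor RIG-I, had 102, 116 and 103 normalised counts in untreated WT samples, 117, 126 and 118 in treated WT samples, 108, 110.5 and 89.4 in untreated S80A samples and 130.2, 124 and 112 in treated S80A samples. Within each genotype the treated samples lay above the untreated ones, by a small margin. The averaged difference was 0.21 (0.02 to 0.41, edgeR adjusted p = 0.446). OAS3, IFIH1 and DDX58 are 3 of the 4 tested members with a κB match in the promoter. The other is IFITM3, which differed by 0.19 (−0.14 to 0.52), and none of the 4 passed the test. Whether those matches have a part in the differences was not tested.

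Among the antiviral effectors, IFITM1, a membrane protein that blocks virus entry, had 15.5, 17 and 19.6 normalised counts in untreated WT samples, 35.3, 17.8 and 21.5 in treated WT samples, 15.8, 9.6 and 18.2 in untreated S80A samples and 25.3, 16.5 and 11.8 in treated S80A samples. Treated and untreated samples overlapped in both genotypes, and treated WT replicate 1 was the highest. The averaged difference was 0.40 (95% interval −0.12 to 0.92, edgeR adjusted p = 0.736). SP100, a nuclear body protein, had 9.3, 6.3 and 12.4 normalised counts in WT cells without treatment, 16.6, 16.8 and 2.9 in WT cells with TNFα, 10.2, 13.2 and 15.6 in S80A cells without treatment and 6.3, 4.7 and 6.4 in S80A cells with TNFα. In S80A cells the treated samples lay below the untreated ones, and in WT cells they overlapped. The difference in S80A cells was −1.13 (95% interval −2.23 to −0.03, edgeR adjusted p = 0.504).

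Upstream of the programme, the interferons themselves were at or near 0. Of 12 interferon ligand genes, among them IFNB1, IFNG and IFNL1, 8 had 0 counts in all samples and the other 4 at most 2, so none was tested and no change in an interferon transcript was detectable. All 9 genes of receptors and their kinases were tested, and 2 rose with TNFα averaged over both genotypes, against 2.17% of all genes. They were JAK1, a kinase of several interferon receptors (log2 change 0.34, SE 0.05), and IFNGR2, a chain of the interferon gamma receptor (0.30, SE 0.05). Among transcription factors of the response, 8 of 10 were tested and IRF1 alone rose. IRF1 had 114, 132 and 118 normalised counts in untreated WT samples, 373, 324 and 433 in treated WT samples, 122, 118 and 112 in untreated S80A samples and 549.7, 413 and 442 in treated S80A samples. All treated samples lay above all untreated ones, and its averaged log2 change was 1.82 (SE 0.10, edgeR adjusted p = 3.22e-08). IRF9, a partner of STAT2, did not pass. Of the genes that lead to interferon production, 7 of 11 were tested and 2 rose, TRAF3 (0.69, SE 0.06) and TICAM1 (0.80, SE 0.11), both adaptors in the signalling of pattern receptors. Of 8 negative regulators, all tested, none passed by edgeR, with 2 at an unadjusted p under 0.05, and DESeq2 called 1. If untreated S80A replicate 2 was omitted, the log2 changes were 0.33 for JAK1, 0.33 for IFNGR2, 1.82 for IRF1, 0.65 for TRAF3 and 0.78 for TICAM1, and each passed.

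A second list held 59 other interferon-stimulated genes, of which 43 were tested and 4 rose with TNFα averaged over both genotypes (5 by DESeq2), where 2.17% of all tested genes passed in either direction. CXCL10, a chemokine that attracts T cells, had 0, 0 and 0 normalised counts in WT cells without treatment, 65.4, 35.6 and 47 in WT cells with TNFα, 0, 0 and 0.9 in S80A cells without treatment and 106, 59 and 79.4 in S80A cells with TNFα. It was at 0 or near it in all untreated samples and present in all treated ones, which leaves no fitted fold to give. TAPBP, which loads peptides onto MHC class I, had 249.5, 202 and 195 normalised counts in untreated WT samples, 618, 477 and 471 in treated WT samples, 233, 219.8 and 274 in untreated S80A samples and 817, 617 and 609.5 in treated S80A samples. TAP1, a peptide transporter of the same path, had 275, 250.5 and 239 normalised counts in WT cells without treatment, 347, 327 and 392 in WT cells with TNFα, 294, 244 and 308 in S80A cells without treatment and 462, 487 and 421 in S80A cells with TNFα. In both genes all treated samples lay above all untreated ones, with log2 changes of 1.38 (SE 0.11) for TAPBP and 0.58 (SE 0.08) for TAP1, at edgeR adjusted p = 1.54e-06 and 0.000577. Without untreated S80A replicate 2 they were 1.35 and 0.54, and both passed. The fourth gene was HELZ2, a helicase, at 0.54 (SE 0.12, edgeR adjusted p = 0.0278), whose call was lost with total counts (0.0534) and without any 1 of 7 libraries. Without untreated WT replicate 1 or 3 its log2 change was 0.54 or 0.50 (edgeR adjusted p = 0.0659 or 0.0935), without treated WT replicate 1, 2 or 3 it was 0.56, 0.57 or 0.49 (0.0565, 0.0518 or 0.0890), and without treated S80A replicate 1 or 2 it was 0.54 or 0.52 (0.0609 or 0.0728), with edgeR or DESeq2 adjusted p from 0.00137 to 0.0935 over all alternatives. When untreated S80A replicate 2 was left out, it was 0.44 (0.00644). The median of the 43 was 0.05, against 0.00 for all tested genes.

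The genotypes differed in more members than the treatment did, and most of these were lower in S80A cells. IFIT1, IFIT5, IFITM2, IFITM3 and IFI35 were lower in S80A cells without treatment, which makes 5 of 25 tested members, against 6.26% of all tested genes (4.21% lower and 2.05% higher). After TNFα 5 of 25 passed, against 7.36% (4.44% lower and 2.92% higher), with IFIT1, IFIT5, IFITM2 and IFI35 lower and ISG15 higher. Averaged over both treatments, 6 S80A against 6 WT samples in one contrast, 7 of 25 passed, against 16.7% (9.47% lower and 7.21% higher). IFIT1, IFIT5, IFITM2, IFITM3, IFI35 and UBE2L6 were then lower, and ISG20 was higher. The averaged comparison uses the samples of the other 2, and the treatment and genotype comparisons share samples as well.

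**Figure D3:**
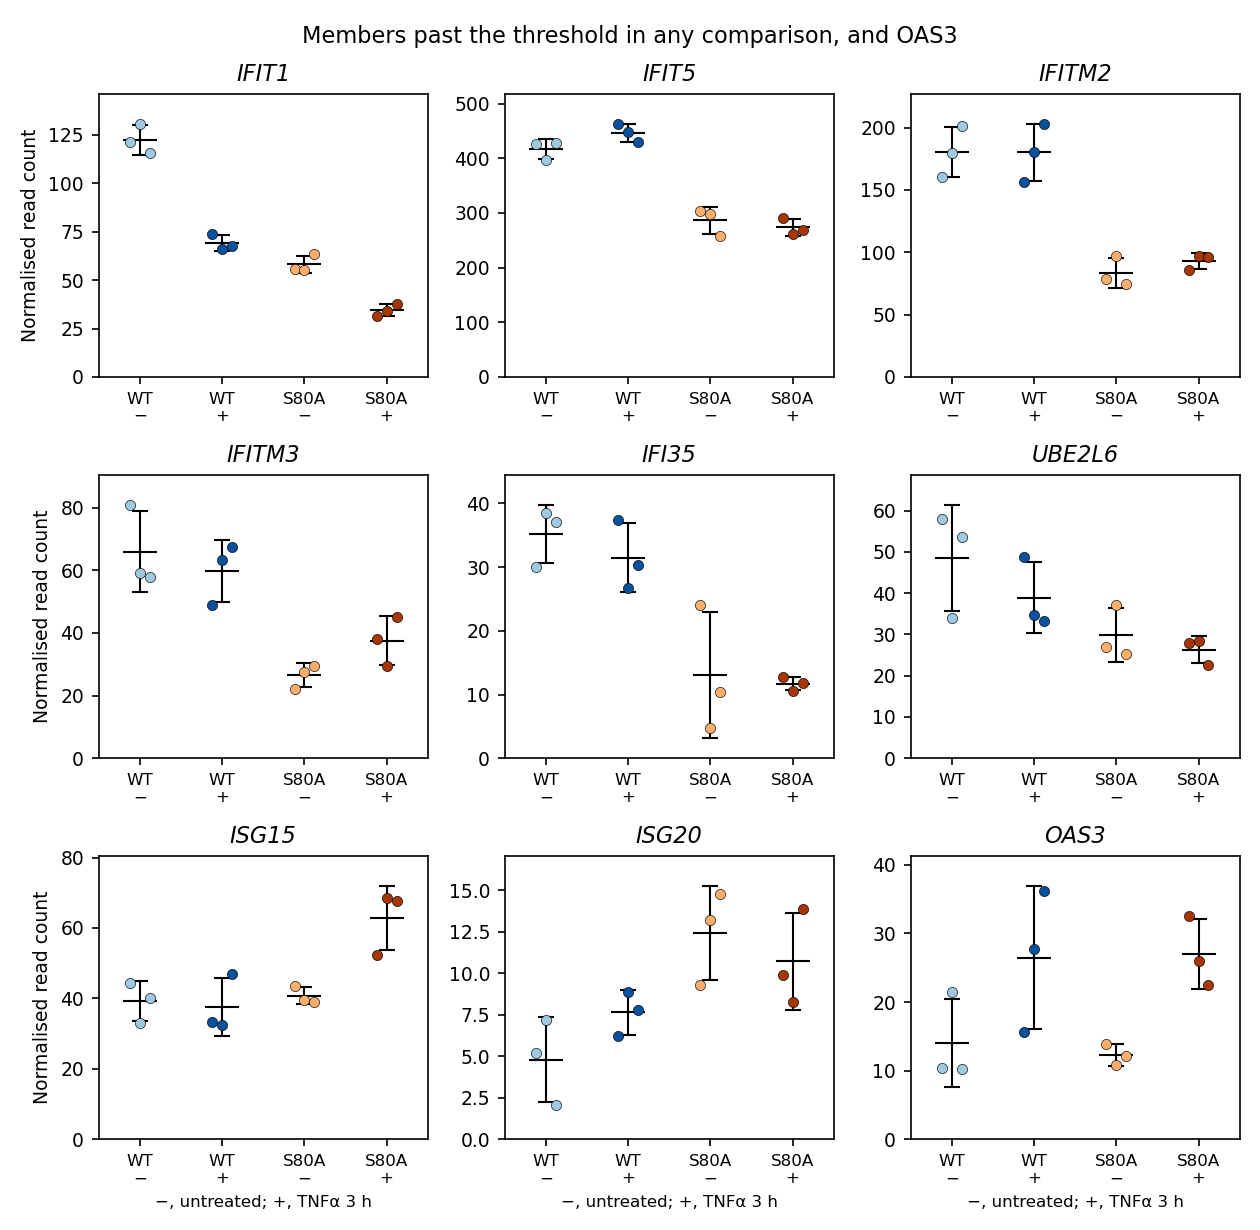
Normalised count (vertical axis, from 0) of the 8 members that passed in any comparison, and of OAS3, in each sample of the 4 groups, with lines for the mean and bars for the SD of 3 samples. IFIT1 steps down from a mean of 122 in untreated WT cells to 34.5 in treated S80A cells, and IFIT5, IFITM2, IFITM3 and IFI35 lie lower in S80A than in WT cells at either treatment.

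The values of IFIT1 were given with TNFα, and no S80A sample reached the lowest WT sample of its treatment. Its group means were 122 ± 7.63 in untreated WT cells, 69.1 ± 4.01 in treated WT cells, 58.1 ± 4.59 in untreated S80A cells and 34.5 ± 2.97 in treated S80A cells (SD, n = 3). The genotype difference was −1.07 without treatment (SE 0.14, edgeR adjusted p = 0.000325), −1.0 after TNFα (SE 0.15, edgeR adjusted p = 0.00154) and −1.04 averaged (SE 0.10, edgeR adjusted p = 1.20e-05). IFIT5 had 426, 396 and 428 normalised counts in untreated WT samples, 462, 448 and 429.7 in treated WT samples, 304, 298 and 259 in untreated S80A samples and 290.2, 262 and 268 in treated S80A samples. All 6 S80A samples lay below all 6 WT samples, with no overlap at either treatment. The difference was −0.54 without treatment (SE 0.09, edgeR adjusted p = 0.00349), −0.71 after TNFα (SE 0.09, edgeR adjusted p = 0.000486) and −0.62 averaged (SE 0.07, edgeR adjusted p = 2.62e-05). IFIT3 did not show this, with an averaged difference of 0.00 (95% interval −0.69 to 0.69). With untreated S80A replicate 2 left out, the untreated differences were −1.04 for IFIT1 and −0.56 for IFIT5 (edgeR adjusted p = 0.00105 and 0.00408), and the averaged ones −1.02 and −0.64 (1.91e-05 and 1.65e-05).

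In the ISG15 system, ISG15 itself, the ubiquitin-like modifier, had 44.5, 33.1 and 40.2 normalised counts in WT cells without treatment, 33.2, 32.6 and 47 in WT cells with TNFα, 43.6, 39.6 and 39.1 in S80A cells without treatment and 52.4, 68.4 and 67.6 in S80A cells with TNFα. The treated S80A samples were the 3 highest of all, and the other 3 groups overlapped. ISG15 was higher in S80A cells after TNFα by 0.73 (SE 0.20, edgeR adjusted p = 0.0380), and without treatment the difference was 0.06 (95% interval −0.38 to 0.50). The call after TNFα was lost without untreated WT replicate 2 (0.73, 0.0505) or 3 (0.73, 0.0580), treated WT replicate 1 (0.65, 0.145) or 2 (0.63, 0.165), untreated S80A replicate 3 (0.73, 0.0540), treated S80A replicate 2 (0.67, 0.119) or 3 (0.67, 0.118), and in a fit of these 6 samples alone (0.0566), with edgeR or DESeq2 adjusted p from 0.0168 to 0.165 over all alternatives. TNFα in S80A cells gave ISG15 a difference of 0.61 (95% interval 0.20 to 1.03, edgeR adjusted p = 0.235), which did not pass.

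UBE2L6, the enzyme that carries ISG15 to its targets, had 58, 34 and 53.6 normalised counts in untreated WT samples, 48.8, 34.6 and 33.3 in treated WT samples, 26.9, 37.2 and 25.2 in untreated S80A samples and 28, 28.3 and 22.5 in treated S80A samples. The treated S80A samples lay below all treated WT samples, and the untreated groups overlapped. Its averaged difference was −0.64 (SE 0.18, edgeR adjusted p = 0.0254), and neither treatment alone passed, at −0.71 without treatment (0.114) and −0.56 after TNFα (0.226). The averaged call was lost without untreated WT replicate 1 (−0.56, 0.0649) or 3 (−0.60, 0.0613), treated WT replicate 1 (−0.54, 0.0722), untreated S80A replicate 3 (−0.58, 0.0627) or treated S80A replicate 3 (−0.59, 0.0585), with edgeR or DESeq2 adjusted p from 0.0108 to 0.0722 over all alternatives. If untreated S80A replicate 2 was omitted, it was −0.72 (edgeR adjusted p = 0.0112). USP18, the protease that removes ISG15, ranged from 249 to 349.8 over all samples and did not pass in any comparison.

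The antiviral effectors held the IFITM genes and ISG20. IFITM2, which blocks virus entry in late endosomes, had 160.5, 179.8 and 201 normalised counts in WT cells without treatment, 157, 181 and 203 in WT cells with TNFα, 78.8, 97.3 and 74.7 in S80A cells without treatment and 85.9, 96.7 and 96.6 in S80A cells with TNFα. All S80A samples lay below all WT samples, and treatment left no step in either genotype. IFITM2 was lower in S80A cells by −1.12 on the log2 scale without treatment (SE 0.15, edgeR adjusted p = 0.000443), −0.96 after TNFα (SE 0.15, edgeR adjusted p = 0.00151) and −1.04 averaged (SE 0.10, edgeR adjusted p = 1.30e-05). IFITM3, a related gene, had 80.8, 59 and 57.8 normalised counts in untreated WT samples, 48.8, 63.2 and 67.5 in treated WT samples, 22.2, 27.6 and 29.5 in untreated S80A samples and 38, 29.5 and 45.1 in treated S80A samples. Again no S80A sample reached the lowest WT sample. The difference was −1.31 without treatment (SE 0.22, edgeR adjusted p = 0.00271) and −0.99 averaged (SE 0.15, edgeR adjusted p = 0.000556). After TNFα it was −0.67 (95% interval −1.13 to −0.21, edgeR adjusted p = 0.0759), which did not pass, and the 2 treatments differed by 0.64 (−0.02 to 1.30, edgeR adjusted p = 0.911). Without untreated S80A replicate 2 the untreated differences were −1.23 for IFITM2 and −1.33 for IFITM3 (edgeR adjusted p = 0.000293 and 0.00494), and the averaged ones −1.09 and −1.0 (4.13e-06 and 0.000600). IFITM1 differed by −0.33 averaged (95% interval −0.85 to 0.19) and did not pass.

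ISG20, an exonuclease that degrades viral RNA, had 5.2, 7.2 and 2.1 normalised counts in WT cells without treatment, 6.2, 8.9 and 7.8 in WT cells with TNFα, 9.3, 13.2 and 14.8 in S80A cells without treatment and 9.9, 8.3 and 13.9 in S80A cells with TNFα. Its counts were low, the untreated S80A samples lay above the untreated WT ones, and the treated groups overlapped. ISG20 was higher in S80A cells by 0.90 averaged (SE 0.28, edgeR adjusted p = 0.0408), and neither treatment alone passed, at 1.32 without treatment (0.0711) and 0.48 after TNFα (0.516). The averaged call was lost without untreated WT replicate 1 (0.92, 0.0740) or 3 (0.73, 0.105), treated WT replicate 1 (0.84, 0.0892), 2 (0.96, 0.0607) or 3 (0.91, 0.0638), untreated S80A replicate 2 (0.88, 0.0541) or 3 (0.81, 0.102), treated S80A replicate 1 (0.93, 0.0657) or 3 (0.79, 0.107), with DESeq2 (0.115) and with no filter (0.0666), with edgeR or DESeq2 adjusted p from 0.0333 to 0.115 over all alternatives.

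IFI35, which binds NMI and takes part in antiviral signalling, had 30.0, 38.5 and 37.1 normalised counts in untreated WT samples, 37.4, 26.7 and 30.3 in treated WT samples, 24.1, 4.8 and 10.4 in untreated S80A samples and 12.7, 10.6 and 11.8 in treated S80A samples. All S80A samples lay below all WT samples, and untreated S80A replicate 1 was the nearest to them. IFI35 was lower in S80A cells by −1.37 without treatment (SE 0.35, edgeR adjusted p = 0.0316), −1.41 after TNFα (SE 0.37, edgeR adjusted p = 0.0350) and −1.39 averaged (SE 0.26, edgeR adjusted p = 0.00192). The averaged call held in each alternative run. The untreated call was lost without untreated WT replicate 1 (−1.47, 0.0529), 2 (−1.30, 0.124) or 3 (−1.34, 0.10) or untreated S80A replicate 2 (−1.04, 0.0542) or 3 (−1.20, 0.124), and in a fit of these 6 samples alone (0.119), with edgeR or DESeq2 adjusted p from 0.00202 to 0.124 over all alternatives, and without untreated S80A replicate 1 the value was −2.12. The call after TNFα was lost without untreated WT replicate 2 (−1.41, 0.0516) or 3 (−1.41, 0.0514), treated WT replicate 1 (−1.27, 0.124), 2 (−1.52, 0.0709) or 3 (−1.43, 0.0536) or treated S80A replicate 1 (−1.47, 0.0955), 2 (−1.35, 0.102) or 3 (−1.41, 0.0871), with edgeR or DESeq2 adjusted p from 0.00592 to 0.124 over all alternatives. When untreated S80A replicate 2 was left out, the averaged difference was −1.22 (edgeR adjusted p = 0.000946).

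The remaining tested members did not pass between the genotypes. IFI6 ranged from 72.0 to 125 over all samples, IFI27 from 4.9 to 16.8, DTX3L from 59.0 to 123 and TRIM21 from 128 to 183. PARP9, a partner of DTX3L in the interferon response, had 56.9, 69.8 and 51.6 normalised counts in WT cells without treatment, 71.6, 64.2 and 59.7 in WT cells with TNFα, 56.5, 54.1 and 55.6 in S80A cells without treatment and 43.4, 51.9 and 38.6 in S80A cells with TNFα. Its treated S80A samples lay below the treated WT ones, with a difference of −0.55 (edgeR adjusted p = 0.0718), and the untreated groups overlapped. With the replicate number as a block, PARP9 passed after TNFα (−0.55, edgeR adjusted p = 0.0478). The median difference of the 25 tested members was −0.11 without treatment, against 0.01 for all tested genes, −0.05 after TNFα, against 0.00, and −0.09 averaged, against 0.00. Of the members not called, 15 of 20 without treatment, 14 of 20 after TNFα and 16 of 18 averaged had a 95% interval within 1 log2 unit either side of 0, and 11, 8 and 10 within 0.5. A p that misses the threshold does not show that the genotypes were alike.

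**Figure D4:**
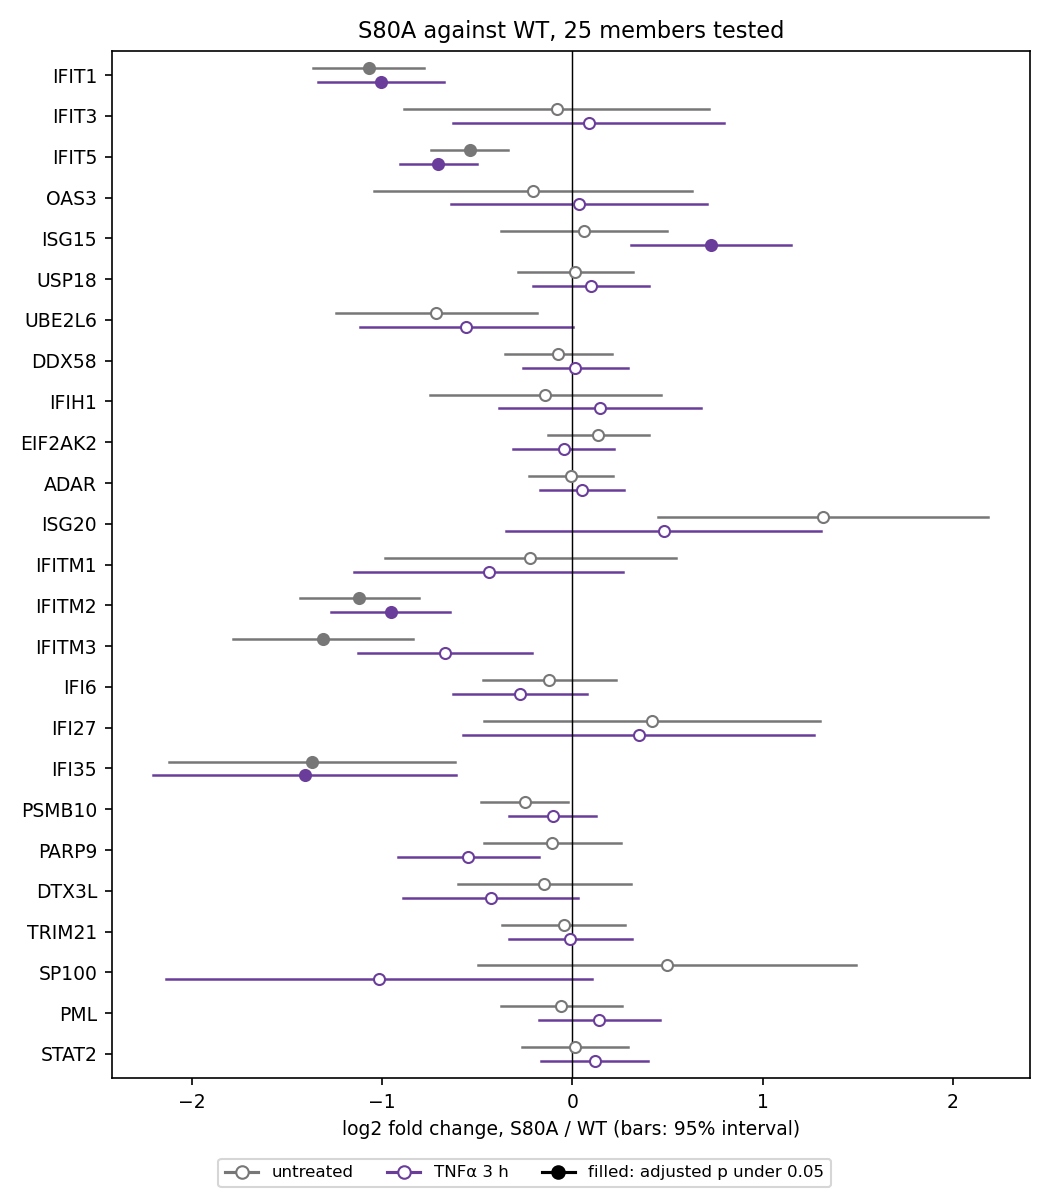
Log2 fold change of S80A over WT cells (horizontal axis) for each of the 25 tested members, with untreated and TNFα-treated cells in separate colours and bars for 95% intervals. Filled points have an adjusted p under 0.05, and all of these are below 0 except ISG15 after TNFα at 0.73.

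Some of these members lie on chromosomes on which many genes were lower in S80A cells. On chromosome 17, 468 of 818 tested genes (57.2%) were lower in the averaged comparison, with a median log2 difference of −0.28 and 90.2% of genes below 0. On chromosome 10 it was 201 of 546 (36.8%), with a median of −0.20 and 84.4% below 0. Over the other 20 autosomes 1.56% to 16.6% of tested genes were lower, with medians from −0.10 to 0.07. These 2 chromosomes were singled out after the values were seen, from the 13775 tested genes with a position. IFI35 lies on chromosome 17, where 31 of the 54 tested genes within 1 Mb of it were lower, with a median of −0.27, and its own difference of −1.39 less the median of the chromosome was −1.11. IFIT1, IFIT3 and IFIT5 lie on chromosome 10. Less the median of that chromosome, the difference was −0.83 for IFIT1 and −0.42 for IFIT5, while that of IFIT3 itself was 0.00. The 9 tested genes within 1 Mb of IFIT1 had a median of −0.24, and 2 of them, IFIT5 and LIPA, were lower. Those within 1 Mb of IFIT5 had the same median. LIPA, at a distance of 0 kb from both, differed by −0.42 (edgeR adjusted p = 0.00099). IFITM2 and IFITM3 lie on chromosome 11, with 5.10% of tested genes lower, and the genes within 1 Mb of IFITM3 had a median of 0.03, with IRF7 the lowest at −3.35. UBE2L6 lies on chromosome 11 as well, ISG15 on chromosome 1 and ISG20 on chromosome 15. The part of the chromosome in the members' differences was not tested.

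**Figure D5:**
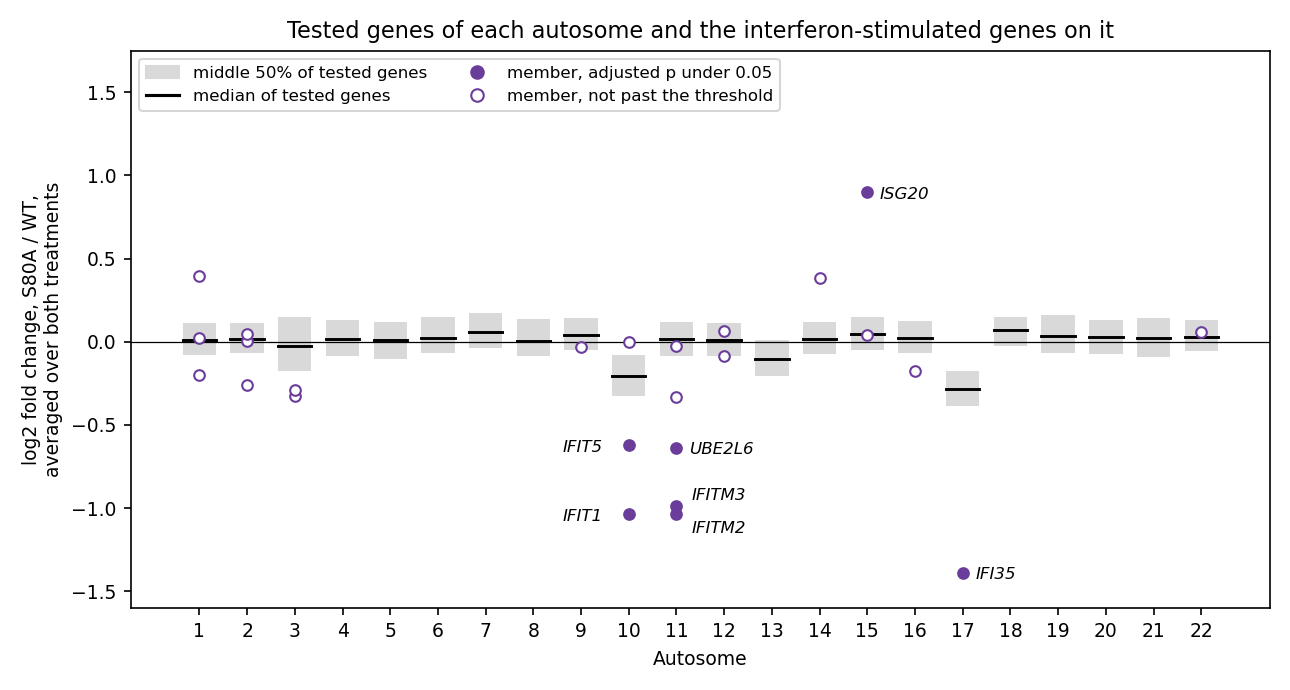
Log2 difference of S80A over WT cells averaged over both treatments (vertical axis) by autosome (horizontal axis), with grey boxes for the middle 50% of tested genes, lines for their medians and points for the tested members, filled where the adjusted p is under 0.05. The boxes of chromosomes 10 and 17 lie below 0, with medians of −0.20 and −0.28, and IFIT1, IFIT5 and IFI35 lie below them.

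Some markers listed for cell types also differed between the genotypes, in samples that did not overlap. COL1A1, a collagen gene listed for fibroblasts, ranged from 251 to 296 in the 6 WT samples and from 108 to 140.4 in the 6 S80A samples. It was the most abundant of the 5 fibroblast markers, and the others that define the type were near 0, with COL1A2 and DCN at no more than 1 raw count in any sample. The 5 markers summed to 262, 286 and 302 in untreated WT cells, 256, 272 and 286 in treated WT cells, 119.5, 139 and 131 in untreated S80A cells and 122, 146 and 139.5 in treated S80A cells. NEFM, a neurofilament gene among the HEK293 markers, ranged from 1709 to 2247 in WT and from 2.7 to 7.2 in S80A samples. EYA1 of the same list went the other way, from 240.3 to 264.7 in WT and from 266.1 to 329.9 in S80A samples, and INA and NEFL overlapped between the genotypes, with INA at 868.2 to 1121 in WT and 1087 to 1573.5 in S80A samples. The part of such differences between the cultures in the values of IFIT1, IFIT5, IFITM2, IFITM3 and IFI35 was not tested.

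In the genes around the programme, the genotype differences averaged over both treatments included regulators of interferon production. IRF7, a transcription factor that drives interferon genes, had 30.0, 16.1 and 27.8 normalised counts in untreated WT samples, 24.9, 17.8 and 33.3 in treated WT samples, 2.8, 1.2 and 3.5 in untreated S80A samples and 4.5, 0 and 1.1 in treated S80A samples. All S80A samples lay below all WT samples, near the floor of 3 counts, with a fitted log2 difference of −3.35 (SE 0.39, edgeR adjusted p = 4.56e-05). STAT3 was lower as well, at −0.30 (SE 0.07), which makes 2 of 8 tested transcription factors, against 16.7% of all tested genes. It lies on chromosome 17 within 1 Mb of IFI35, and less the median of that chromosome its difference was −0.02. IKBKE, a kinase that activates the interferon regulatory factors, had 75.6, 50.1 and 58.8 normalised counts in WT cells without treatment, 55, 50.4 and 52.9 in WT cells with TNFα, 17.6, 4.8 and 4.3 in S80A cells without treatment and 19.9, 3.5 and 9.7 in S80A cells with TNFα. All S80A samples lay below all WT samples, and replicate 1 was the highest S80A sample at each treatment. The difference was −2.45 (SE 0.30, edgeR adjusted p = 8.54e-05), and IKBKE was the only 1 of 7 tested genes of interferon production to pass. PTPN6, a phosphatase, was the only 1 of 8 negative regulators to pass by edgeR, at −1.74 (SE 0.35). Its S80A and WT samples overlapped, though not within either treatment. PTPN6 passed after TNFα (edgeR adjusted p = 0.0437) and not without treatment (edgeR adjusted p = 0.0558). DESeq2 called 2 negative regulators in the averaged comparison, 1 higher and 1 lower. IRF9 did not pass, at −0.13. With untreated S80A replicate 2 left out, the differences were −3.22 for IRF7, −0.25 for STAT3, −2.33 for IKBKE and −1.54 for PTPN6, and each passed. Of the 9 receptors and kinases IFNGR2 passed, higher in S80A cells by 0.19 (SE 0.05, edgeR adjusted p = 0.0248). That call was lost without untreated WT replicate 1 (0.17, 0.0683) or 3 (0.19, 0.0534), treated WT replicate 1 (0.17, 0.0685) or treated S80A replicate 1 (0.19, 0.0528) or 2 (0.19, 0.0519), and with no filter (0.0704), with edgeR or DESeq2 adjusted p from 0.00471 to 0.0704 over all alternatives. If untreated S80A replicate 2 was omitted, it was 0.16 (0.0299).

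Of the 43 other interferon-stimulated genes tested, 5 passed between the genotypes, 3 lower and 2 higher, where 16.7% of all tested genes passed. PHF11, a zinc finger protein, had 24.8, 44.7 and 32 normalised counts in untreated WT samples, 43.6, 37.5 and 26.4 in treated WT samples, 4.6, 3.6 and 4.3 in untreated S80A samples and 3.6, 3.5 and 1.1 in treated S80A samples. All S80A samples lay below all WT samples, by −3.30 (SE 0.28, edgeR adjusted p = 2.42e-06). IFI30, a lysosomal thiol reductase, was lower by −0.97 (SE 0.10) and CNP by −0.33 (SE 0.05), or −0.05 less the median of chromosome 17, on which it lies. NMI, the partner of IFI35, had 26.9, 28.6 and 27.8 normalised counts in WT cells without treatment, 40.5, 34.6 and 32.3 in WT cells with TNFα, 37.1, 72.1 and 56.4 in S80A cells without treatment and 49.7, 50.7 and 63.3 in S80A cells with TNFα. Its untreated S80A samples lay above the untreated WT ones and its treated S80A samples above the treated WT ones, by 0.79 averaged (SE 0.16, edgeR adjusted p = 0.00424). Without untreated S80A replicate 2 the differences were −3.26 for PHF11, −0.91 for IFI30, −0.31 for CNP and 0.68 for NMI, and each passed. TAP1, whose values were given with TNFα, was higher in S80A cells by 0.26 (SE 0.08, edgeR adjusted p = 0.0426). That call was lost without untreated WT replicate 2 (0.25, 0.101) or 3 (0.23, 0.117), treated WT replicate 1 (0.25, 0.0952) or 2 (0.22, 0.117), untreated S80A replicate 1 (0.24, 0.0791) or 3 (0.22, 0.12), treated S80A replicate 1 (0.25, 0.0821) or 2 (0.23, 0.10), and with no filter (0.0673), with edgeR or DESeq2 adjusted p from 0.0108 to 0.12 over all alternatives. When untreated S80A replicate 2 was left out, it was 0.30 (0.0108). The median of the 43 was 0.04, against 0.00 for all tested genes.

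Whether the response to TNFα differed between the genotypes was tested by the interaction of the 2 factors. No member passed by edgeR, against 0% of all tested genes, and DESeq2 called 0 genes as well. At an unadjusted p under 0.05 there were 520 genes, among them 2 members. ISG15 had an interaction of 0.67 (95% interval 0.06 to 1.27, unadjusted p = 0.0326, edgeR adjusted p = 0.911), with its higher values in treated S80A cells. SP100 had −1.51 (−3.01 to −0.02, unadjusted p = 0.0478, edgeR adjusted p = 0.911), at counts of 2.9 to 16.8. For IFIT1 the interaction was 0.07 (−0.38 to 0.52), so the steps with treatment were not shown to differ between WT and S80A cells. Of the 25 intervals 15 lay within 1 log2 unit either side of 0 and 6 within 0.5. For the other 10 members a difference in response of more than 1 log2 unit was not excluded.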

How the data were processed

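RNA of the 12 samples was sequenced as single-end 75 base reads. The submitters' processing notes name FastQC, HISAT, StringTie, HTSeq and DESeq2 and the build GRCh38, with no versions given, and the authors deposited whole-number counts per gene symbol that were not normalised. Samples took their group and replicate number from GEO's titles. From 33121 genes, 28 whose symbols had become dates were left out (at most 0.233% of a sample's counts). Genes were filtered with filterByExpr (minimum count 10), scaled by TMM and fitted in R 4.3.3 with edgeR 4.0.16 as a mean per group, with the quasi-likelihood test, Benjamini-Hochberg adjustment over all tested genes and a threshold of 0.05. The steps were tested on simulated data. Promoters were searched with Python 3.11.15, and other genes within 1 Mb of a member counted as its neighbours.

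Alternatives were DESeq2 1.42.0, DESeq2 size factors, total counts, no filter, at least 10 counts in every sample, a replicate block, the 6 samples compared, and leaving out each sample. For genes of the other lists they were chosen after seeing the data. The members and lists were chosen with earlier results of these data known. Values in every sample were given for members called in any comparison, the 5 with the highest mean CPM and the 5 with the largest averaged difference by treatment and by genotype. DDX58, SP100, PARP9 and the genes of other lists shown by sample were chosen after their values were seen. The authors also deposited lists of their own comparisons, which hold log2 fold changes, p-values, adjusted p-values and a normalised signal, and these were not used. Some items are not reported here.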

Additional observations from a re-analysis of the deposited data

How the results depend on the processing

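Over 436 alternatives of 24 named values of members, 385 kept their direction and their side of the threshold, 46 no longer passed, 5 newly passed and 0 changed direction. The number of members called for TNFα in S80A cells went from 1 to 0 with DESeq2, 0 with no filter on low counts and 0 in a fit of the 6 samples compared. For TNFα averaged over both genotypes it went from 1 to 2 with DESeq2, 2 with DESeq2 size factors and 2 with no filter. Leaving out 1 sample at a time gave 0 to 1 members for TNFα in WT cells, 0 to 1 in S80A cells and 1 to 2 averaged, 4 to 5 for the genotypes without treatment, 3 to 5 after TNFα, 5 to 7 averaged, and 0 for the interaction each time. The cause was not tested. Over all genes, TNFα in WT cells called 99 genes and 155 with DESeq2, and in S80A cells 181 and 71 from the 6 samples compared. The untreated genotype comparison called 900 genes and 456 from the 6 samples compared. Leaving out 1 sample gave 65 to 145 genes for TNFα in WT cells, 98 to 193 in S80A cells, 356 to 1039 for the genotypes without treatment and 434 to 1646 after TNFα. The averaged comparisons and the interaction compare all 12 samples, so a fit of the samples compared is the main fit for them.

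Replicate numbers 2 and 3 were not shown to pair the samples, while samples numbered 1 deviated together. Deviations from the group means correlated with a mean r of 0.118 over the 18 pairs of samples with one number, and −0.059 over other pairs. All 6 pairs of replicate 1 passed 0.1, at 0.116 to 0.495, as did 3 of the other 12, and 6 of 12 samples were closest to their own number. With the replicate number as a block, 1 member was called for TNFα in WT cells, 1 in S80A cells and 1 averaged, 5 for the genotypes without treatment, 6 after TNFα (PARP9 was gained, lower in S80A cells) and 7 averaged, and 0 for the interaction.

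Members with few reads are limited by depth. ISG20, OAS3, IFIH1, IFIT3, IFITM1, IFI27, IFI35 and SP100 had under 40 normalised counts in each sample, and their intervals are wide. The 16 members that were not tested give no view of a small response. With 3 samples per group, and the number of edited clones not given in the sources used here, the genotype differences belong to these cultures.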

Other observations

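LGALS3BP, a secreted glycoprotein among the other interferon-stimulated genes, was chosen after its values were seen. It had 323, 160.1 and 170.2 normalised counts in untreated WT cells and 322, 135 and 171 in treated WT cells. In untreated S80A cells it had 322, 81.7 and 80.7, and in treated S80A cells 319, 83.8 and 101. Replicate 1 was the highest sample in each of the 4 groups, at nearly one level, and the other samples lay lower, with those of S80A cells below those of WT cells.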
